A study of Mus musculus with 3 samples.

Results

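The genes described here encode the mature sarcomere of skeletal muscle and the machinery that couples its electrical excitation to contraction. They were a list of 44 gene symbols, and each had at least 1 probe set annotated with that symbol alone. Each gene was read from the probe set whose mean over the 3 arrays was highest, and 35 of the 44 had a mean log2 value of at least 5 and entered the test, out of 8456 genes tested. Total RNA came from dorsal skin of 4-day-old female BALB/cA mice, with 1 wild type and 2 uncv null arrays, written below as uncv null 1 and uncv null 2. Where 3 log2 values are given they stand in the order wild type, uncv null 1, uncv null 2, and where 2 values are given for the uncv null arrays they stand in that same order. The uncv null (uncv -/-) and wild type (uncv +/+) animals were sisters from uncv heterozygous parents. The labels do not state whether an array holds 1 mouse or a pool, so what the spread between the uncv null arrays measures is not settled. No agent, transgene or deletion shared by both groups is named. Uncovered (uncv) arose spontaneously and leaves mice with little hair, and its gene is Rhbdf2, for the inactive rhomboid iRhom2. The comparison asks how the transcripts of early postnatal skin differ where uncv function is lost. The wild type group is 1 array, so its own spread was not measured. P-values and standard errors rest on the spread between the 2 uncv null arrays, moderated toward that pooled over all tested probe sets. With 1 residual against 4.75 prior degrees of freedom, the pooled spread weighs more.

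Mouse back skin carries its own striated muscle, the panniculus carnosus, a thin sheet under the dermis and fat that twitches the skin. In each fibre, myosin thick filaments pull on actin thin filaments anchored at Z-discs. An action potential opens calcium release from the sarcoplasmic reticulum, and a calcium pump ends the contraction by returning the calcium. Around birth, embryonic and perinatal isoforms of these proteins give way to adult ones, and fibres take on fast or slow isoform sets. The values below are from whole skin, where fewer muscle fibres and less RNA per fibre cannot be told apart.

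Before the results, 3 control measures differed between the arrays. Probe sets for 18S ribosomal RNA averaged 3.59 on the log2 scale in wild type against 7.93 and 4.26 in the uncv null arrays. For the Actb control, the gap of the 3' over the 5' probe set was 0.66, 1.23 and 0.79 log2 units, and hybridisation spike-ins averaged 8.01, 8.71 and 8.44. The part of these measures in the values below was not tested. Rhbdf2 stood at 5.83, 6.29 and 6.49, a value that does not check the labels, because where the probe set lies on the mutated gene was not looked up.

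Most sarcomere and excitation-contraction genes had lower values in either uncv null array than in the wild type array. Actn3 and Mybpc2, genes of fast fibres, lay over 2-fold higher. Of the 10 tested fast-fibre members, 6 were lower in both uncv null arrays and 3 higher. Actn3 had a mean above the filter only through the uncv null arrays and Jph1 only through wild type, so neither supports a direction. No difference passed the test adjusted over all genes, so the values describe these 3 arrays. Of the 35 tested members, 28 (80.0%) were below wild type in both uncv null arrays, against 26.4% of all tested genes. Another 3 (8.57%) were above it in both, against 38.8% of all tested genes, and the other 4 lay on opposite sides. The median member difference was -0.40 log2 units in uncv null 1 and -0.71 in uncv null 2, where all tested genes had medians of 0.03 and 0.07. Over all 44 members with no filter the medians were -0.34 and -0.55. The members were listed with earlier results of these data known, so these shares and medians are descriptions.

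By limma, 0 members and 0 of 8456 genes (0.0%) passed the adjusted threshold of 0.05, and the smallest adjusted p of a member was 0.9996. At an unadjusted p under 0.05, 10 members (28.6%) were lower and 2 (5.71%) higher, against 1.31% and 1.58% of all tested genes. The higher ones were Mybpc2 and Actn3. Actn3 passed the filter only through the uncv null arrays, so its place in that share supports no direction. With 1 array against 2, an exact permutation of the array labels could not go below p = 0.333. A second, descriptive rule asked for both uncv null arrays at least 1 log2 unit, or 2-fold, from wild type on the same side. It took in Mybpc2 and Actn3, the latter under the filter's level in wild type, among the higher members (2 of 35, against 0.225% of all tested genes). Casq2 and Dhrs7c met it among the lower members (2 of 35, against 0.296%). Cav3 lay just outside, at -0.98 and -1.28 in the uncv null arrays. By uncv null 2 alone, 9 members lay at least 2-fold below wild type, and by uncv null 1 alone 2 did. The shares of all tested genes by 1 array alone were not computed, so these counts only describe the arrays.

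**Figure D1:**
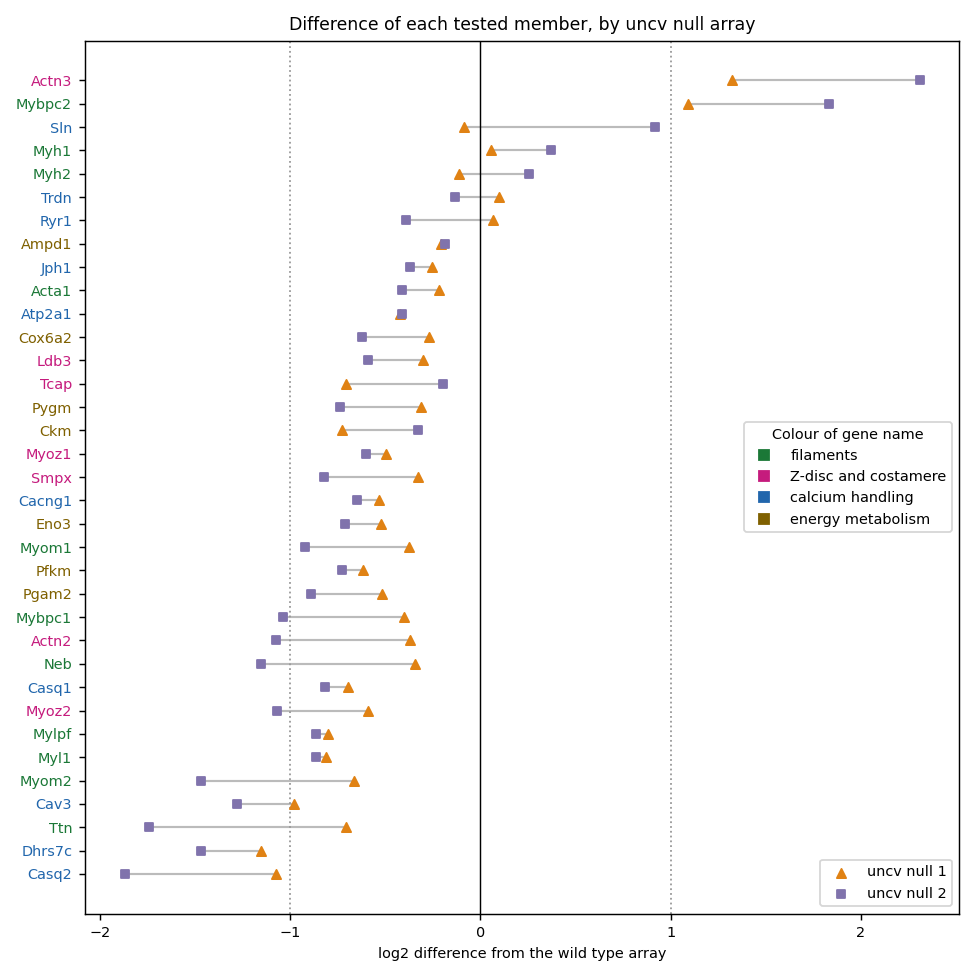
Log2 difference from the wild type array (x axis) of each of the 35 tested members, with triangles for uncv null 1, squares for uncv null 2 and dotted lines at 1 log2 unit. In 28 members both points lie left of 0, and Actn3 and Mybpc2 are the members with both points right of the upper dotted line.

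Promoter windows are shown for Mybpc2 and Casq2, members past the 2-fold rule on opposite sides, each with its paralog, because the values of these pairs are compared below. RefSeq windows on GRCm38.p6 run from 250 bases before to 50 bases after a gene's start, and 30 of the 44 members matched a window by symbol. Capitals mark, on either strand, the E-box CANNTG bound by myogenic factors, the MEF2 core TAAAAATA, the M-CAT motif CATTCC, the TATA box TATAAA and the CArG box, searched by its standard consensus. Mybpc2 lies at chr7:44524620-44524919 on the minus strand and Mybpc1 at chr10:88605103-88605402 on the minus strand. The Casq2 window is chr3:102086165-102086464 on the plus strand, and that of Casq1 is chr1:172219846-172220145 on the minus strand.
Mybpc2: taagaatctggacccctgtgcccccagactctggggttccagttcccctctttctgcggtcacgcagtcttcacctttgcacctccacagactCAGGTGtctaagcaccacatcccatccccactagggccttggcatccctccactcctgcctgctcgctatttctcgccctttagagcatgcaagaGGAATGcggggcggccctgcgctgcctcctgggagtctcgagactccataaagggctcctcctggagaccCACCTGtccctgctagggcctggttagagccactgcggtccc
Mybpc1: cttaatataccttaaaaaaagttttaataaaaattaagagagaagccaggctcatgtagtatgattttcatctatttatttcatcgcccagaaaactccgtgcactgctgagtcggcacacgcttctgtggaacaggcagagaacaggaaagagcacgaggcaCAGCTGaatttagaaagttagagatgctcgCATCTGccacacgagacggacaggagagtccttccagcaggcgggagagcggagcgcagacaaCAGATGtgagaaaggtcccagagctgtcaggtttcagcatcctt
Casq2: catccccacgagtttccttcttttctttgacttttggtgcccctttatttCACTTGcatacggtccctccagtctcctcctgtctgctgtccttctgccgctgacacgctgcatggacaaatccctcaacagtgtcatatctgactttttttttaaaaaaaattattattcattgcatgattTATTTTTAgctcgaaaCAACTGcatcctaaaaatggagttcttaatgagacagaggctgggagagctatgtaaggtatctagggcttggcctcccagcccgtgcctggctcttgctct
Casq1: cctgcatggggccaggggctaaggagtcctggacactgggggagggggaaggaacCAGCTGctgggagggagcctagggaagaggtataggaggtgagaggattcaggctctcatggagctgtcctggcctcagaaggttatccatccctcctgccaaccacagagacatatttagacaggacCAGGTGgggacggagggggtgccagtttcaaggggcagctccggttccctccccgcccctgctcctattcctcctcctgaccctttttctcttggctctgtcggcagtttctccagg
An E-box was found 2 times in the windows of Mybpc2, Casq2 and Casq1 and 3 times in that of Mybpc1. The capitals in Casq2 also include 1 MEF2 core, and those in Mybpc2 include 1 M-CAT motif; no marked matches overlap in these windows. Over the first listed window of each of 27025 genes, 72.1% held an E-box, 2.7% a MEF2 core, 14.6% an M-CAT motif, 14.2% a TATA box and 1.6% a CArG box. Among the 30 member windows the counts were 24, 2, 12, 5 and 5 in the same order. These matches are letters in a window and were not tested as sites.

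Filament genes comprised 16 members, of which 11 were tested, with medians of -0.38 and -0.86 in uncv null 1 and uncv null 2. Of the tested genes, 8 lay below wild type in both arrays and 2 above. Beside this and each member group below, 26.4% of all tested genes lay below wild type in both arrays and 38.8% above it. Acta1, the actin of adult skeletal thin filaments, had log2 values of 12.48 in wild type against 12.27 and 12.07 in the uncv null arrays. Nebulin, the giant protein that spans the thin filament and is encoded by Neb, was at 6.80, 6.46 and 5.65. Titin (Ttn), which spans from Z-disc to M-band and acts as a molecular spring, read 8.95, 8.25 and 7.21. All 3 were highest in wild type and lowest in uncv null 2. Ttn differed by -1.22 ± 0.45 (limma's moderated SE, 1 against 2 arrays), and a further Ttn probe set above the filter was at -0.47 and -1.38.

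Both fast myosin light chains showed nearly the same values in the uncv null arrays. Mylpf, the fast regulatory light chain, had 11.18 in wild type against 10.38 and 10.31 in the uncv null arrays. Myl1, the fast essential light chain, had 11.07, 10.26 and 10.21. The gap to wild type was over 10 times the distance between the uncv null arrays for each, and the mean differences were -0.83 ± 0.26 and -0.84 ± 0.26. Myom1, which encodes a myomesin that crosslinks thick filaments at the M-band, stood at 7.36, 6.98 and 6.44. Its relative Myom2 stood at 8.57, 7.91 and 7.11, a mean difference of -1.07 ± 0.39. That Myom2 probe set has the suffix _x_at, and 2 further sets above the filter were at -0.61 and -1.29 and, for another _x_at set, at -0.003 and -0.70 in the uncv null arrays. With the mean of its probe sets Myom2 differed by -0.565. In the representative probe sets of both myomesins wild type was highest and uncv null 2 lowest.

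The adult myosin heavy chains did not share the lower values. Myh1, the heavy chain of fast IIx fibres, had 8.84 in wild type against 8.90 and 9.21 in the uncv null arrays. Myh2, that of fast IIa fibres, had 5.38, 5.26 and 5.63, so wild type lay between the uncv null arrays. The Myh1 probe set has the suffix _x_at, given to sets with probes that match other sequences, and a further set above the filter gave 0.11 and 0.40 for Myh1. In the reference gene table Myh1 and Myh2 are neighbours on chromosome 11 in a cluster with Myh3, Myh4, Myh8 and Myh13, so reads of single heavy chains are uncertain. Mybpc1, the slow isoform of myosin-binding protein C, a regulator of cross-bridges, stood at 9.51, 9.11 and 8.47, and its other tested probe sets were at -1.41 and -1.15 in uncv null 1 and at -1.005 and -1.39 in uncv null 2. Mybpc2, the fast isoform, ran the other way at 5.78, 6.87 and 7.61. Both uncv null arrays exceeded wild type, by 1.09 and 1.83, with a mean difference of 1.46 ± 0.37 or 2.75-fold. The untested filament members Myh4, Myh7, Myl2, Myl3 and Mylk2, which encode the IIb and slow heavy chains, the slow light chains and the skeletal light chain kinase, had wild type values of at most 3.96, close to the median of all probe sets at 3.70.

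**Figure D2:**
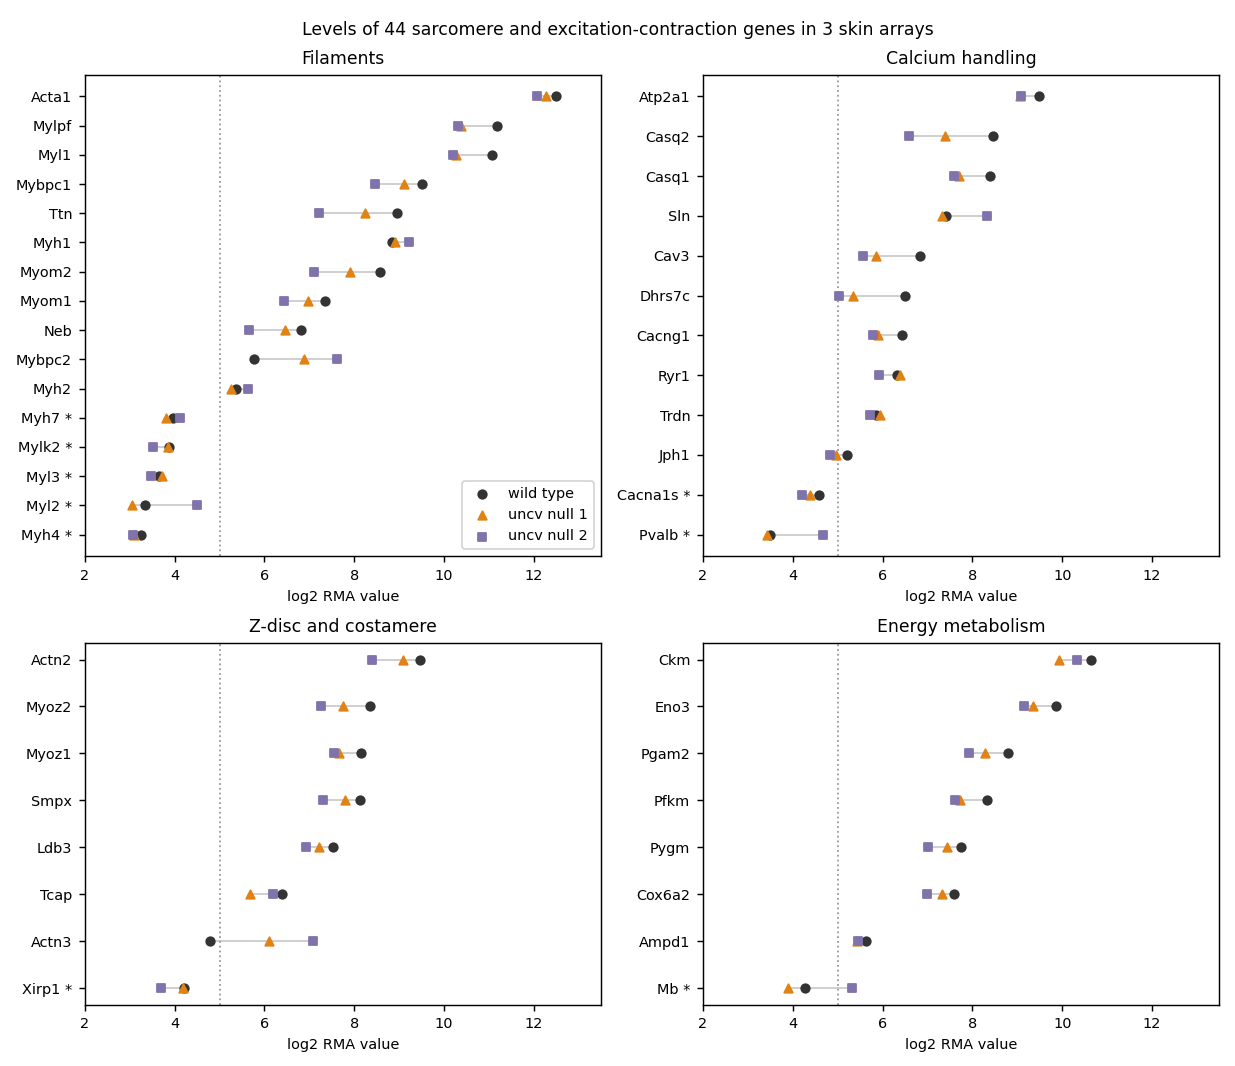
Log2 RMA value (x axis) of all 44 members in the wild type array (circles), uncv null 1 (triangles) and uncv null 2 (squares), by role; an asterisk marks the 9 members under the filter and the dotted line stands at 5. Wild type is the rightmost point in most rows, and in Actn3 and Mybpc2 it lies well left of the others.

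Z-disc and costamere genes comprised 8 members, of which 7 were tested, with medians of -0.37 and -0.60; 6 lay below wild type in both arrays and 1 above. Actn3, the alpha-actinin of fast fibres, had the largest difference of any tested member. Its log2 values were 4.78 in wild type against 6.10 and 7.09 in the uncv null arrays, a mean difference of 1.81 ± 0.44 or 3.52-fold. The gene was below the filter's level in wild type alone and was tested only because its uncv null values were high, so its difference is a description. Actn2, the alpha-actinin of all skeletal fibres and heart, stood at 9.46, 9.09 and 8.39 and differed by -0.72 ± 0.36. Wild type was thus the lowest array for Actn3 and the highest for Actn2.

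Myozenins bind alpha-actinin at the Z-disc and tether the phosphatase calcineurin. The slow and cardiac form Myoz2 had 8.34 in wild type against 7.75 and 7.27 in the uncv null arrays, with a mean difference of -0.83 ± 0.31. The fast form Myoz1 had 8.16, 7.66 and 7.56. Ldb3, a PDZ and LIM protein of the Z-disc, stood at 7.52, 7.21 and 6.93, and its other tested probe set differed by -0.46 and -1.40. In these 3 genes wild type was the highest array. Tcap, which caps the end of titin, was at 6.39, 5.68 and 6.20, with uncv null 1 the lowest. Smpx, a small muscle protein of the costamere, was at 8.13, 7.80 and 7.31. Xirp1, an actin-binding repeat protein, was under the filter at 4.22, 4.19 and 3.70.

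Genes of calcium handling and excitation comprised 12 members, of which 10 were tested, with medians of -0.48 and -0.53; 7 lay below wild type in both arrays and 0 above. The calsequestrins, calcium-binding proteins inside the sarcoplasmic reticulum, were both lower. Casq2, the slow and cardiac form, had 8.45 in wild type against 7.38 and 6.58 in the uncv null arrays, a mean difference of -1.47 ± 0.39 or 2.77-fold. It was the lowest difference among tested members, and its probe set with the suffix _s_at is the only one for the gene. Casq1, the fast form, had 8.40, 7.70 and 7.58. Dhrs7c, an oxidoreductase of the sarcoplasmic reticulum membrane, stood at 6.50, 5.34 and 5.03 and differed by -1.31 ± 0.28, with the smallest unadjusted limma p of any member at 0.0038. Cav3, the caveolin of muscle membranes, stood at 6.84, 5.86 and 5.56 and differed by -1.13 ± 0.28. For all 4 genes the distance from wild type to the nearer uncv null array exceeded the distance between the uncv null arrays, and the adjusted limma p of each was 0.9996 or above.

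The core of the calcium release unit differed less. Ryr1, the calcium release channel, had 6.32 in wild type against 6.39 and 5.93 in the uncv null arrays. Triadin (Trdn), which links that channel to calsequestrin, had 5.85, 5.95 and 5.72. Wild type lay between the uncv null arrays for both. Jph1, a junctophilin that holds the transverse tubule to the reticulum, was at 5.21, 4.96 and 4.84, with only wild type above the filter's level, and Cacng1, the gamma subunit of the voltage sensor, at 6.43, 5.90 and 5.78. The pore subunit Cacna1s was under the filter at 4.58, 4.39 and 4.21. Cacng1 differed by -0.59 ± 0.26 and Jph1 by -0.31 ± 0.26, so only the former exceeded its standard error by more than 2 times.

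Atp2a1, the calcium pump of fast fibres, had 9.49 in wild type and 9.07 in both uncv null arrays. Sarcolipin (Sln), a small inhibitor of that pump, had 7.41, 7.33 and 8.33, so uncv null 2 alone stood apart, 1.004 above uncv null 1. The same array stood apart in 3 members under the filter. Parvalbumin (Pvalb), a calcium buffer of fast fibres, was at 3.49, 3.43 and 4.68. Myl2, the slow and cardiac regulatory light chain, was at 3.35, 3.05 and 4.50, and myoglobin (Mb), the oxygen store of oxidative fibres, at 4.26, 3.90 and 5.31. In each of these 4 genes uncv null 1 was the lowest array, and these values are descriptions of 1 array.

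Energy metabolism comprised 8 members, of which 7 were tested, with medians of -0.52 and -0.71; all 7 lay below wild type in both arrays. Ckm, muscle creatine kinase, which buffers ATP, had 10.65 in wild type against 9.92 and 10.32 in the uncv null arrays. Pygm, muscle glycogen phosphorylase, which releases glucose units from glycogen, had 7.76, 7.44 and 7.02. Pfkm, muscle phosphofructokinase, had 8.33, 7.72 and 7.61 and differed by -0.67 ± 0.26. For Ckm the lowest array was uncv null 1 and for the other 2 it was uncv null 2. The later glycolytic enzymes Pgam2, muscle phosphoglycerate mutase, and Eno3, muscle enolase, stood at 8.80, 8.29 and 7.91 and at 9.86, 9.34 and 9.15. Their mean differences were -0.70 ± 0.29 and -0.62 ± 0.27. Cox6a2, the heart and muscle isoform of a cytochrome c oxidase subunit, was at 7.60, 7.33 and 6.98. Ampd1, the muscle AMP deaminase, was at 5.64, 5.43 and 5.45, the smallest difference of this group. The range of mean differences in the group, from -0.70 to -0.20, was narrower than in the other groups.

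Fibre type was compared by the lists of fast-fibre and of slow-fibre and cardiac members. The 10 tested fast-fibre members had medians of -0.46 and -0.51, and 6 of them lay lower in both arrays and 3 higher. Those higher in both were Actn3, Mybpc2 and Myh1. Only 3 of the 6 slow-fibre and cardiac members were tested, Mybpc1, Myoz2 and Casq2. All 3 were lower in both arrays, with medians of -0.59 and -1.07. Under the filter, Myh7 was at -0.15 and 0.16 from wild type, Myl2 at -0.30 and 1.15, and Myl3 at 0.07 and -0.18. In each of them the uncv null arrays lay on opposite sides of wild type. The difference between the fibre lists was not tested, since members are not replicates. By level, the 7 tested members with a mean of at least 9 had mean differences from -0.84 to -0.31 and were lower in both arrays. The 15 with a mean from 7 to 9 ranged from -1.47 to 0.42. Those with a mean from 5 to 7, 13 members, ranged from -1.31 to 1.81.

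The order of the arrays recurred across members. The distance to wild type was larger for uncv null 2 than for uncv null 1 in 31 of 35 tested members. Of the 28 lower members, 24 had uncv null 2 as the lowest array. The shares of all tested genes for these counts were not computed, so the counts are not read as particular to the members. Uncv null 2 was below uncv null 1 in 26 members (74.3%), against 44.4% of all tested genes. The exceptions among lower members were Tcap, Ckm, Atp2a1 and Ampd1. Of the 8 further member probe sets above the filter, from 6 members, 8 had the sign of the representative.

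Ratios between related isoforms show whether they were unequally displaced in the same array. Where a partner is also made outside muscle, the ratio also moves with the amount of muscle in the skin. Pairs were listed from textbook knowledge with these results in view, so the ratios are descriptions, and both genes were tested in 16 of 18. The ratio of Mybpc2 to Mybpc1 stood above its wild type value by 1.50 and 2.87 log2 units in the uncv null arrays. Casq1 to Casq2 was at 0.38 and 1.05 and Myoz1 to Myoz2 at 0.09 and 0.47. In these 3 pairs of a fast and a slower isoform the ratio was tilted to the fast one in both arrays, and further in uncv null 2; the calcium pump pair, given below, was not. The ratio of Actn3 to Actn2 was at 1.69 and 3.38, but Actn3 was under the filter's level in wild type, so these sizes are a description only. The ratio of Myom1 to Myom2 was at 0.29 and 0.55, and its direction depended on the probe set. Against the 2 further Myom2 sets it was at 0.23 and 0.37 and at -0.37 and -0.22, and with the mean of probe sets at -0.10 and -0.06.

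Ratios of adult members to embryonic and perinatal partners were tilted to the adult members in both arrays. Myh3, the embryonic myosin heavy chain, differed from wild type by -0.87 and -3.19 in the uncv null arrays, so the ratio of Myh1 to Myh3 stood above by 0.93 and 3.56. Perinatal Myh8 differed by -0.36 and -0.86, and the ratio of Myh1 to it stood above by 0.41 and 1.23. Actc1, the cardiac actin that developing skeletal muscle also uses, differed by -1.32 and -2.85, and the ratio of Acta1 to Actc1 stood above by 1.10 and 2.44. Myl4, the embryonic essential light chain, differed by -1.44 and -2.70, and the ratio of Myl1 to Myl4 by 0.63 and 1.84, although with the mean of probe sets it was at -0.01 and 0.72. Each of these ratios was displaced further in uncv null 2.

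The muscle enzymes were displaced against their partners from other tissues in the opposite direction. The ratio of Ckm to the brain creatine kinase Ckb stood at -0.83 and -0.62 from wild type, and that of Pgam2 to Pgam1 at -0.61 and -1.23. Pfkm to Pfkp, the platelet phosphofructokinase, was at -1.10 and -2.04, where Pfkp itself was at 0.49 and 1.31, and Pfkm to the liver form Pfkl was at -0.68 and -0.93. Pygm to Pygb was at -0.40 and -0.79, Cox6a2 to Cox6a1 at -0.41 and -0.73, and Atp2a1 to Atp2a2, the pump of slow fibres and of most other cells, at -0.46 and -0.51. With 2 of the 3 further probe sets of Atp2a2 the pump ratio was at -0.21 and 0.26 and at 0.02 and 0.15, so it had no settled direction. These partners are also made outside muscle. Over all 16 pairs in the representative probe sets, 9 were tilted to the first gene in both arrays and 7 to the second. Over every combination of probe sets above the filter, the direction held in both arrays for 14 pairs, and the other 2 were the myomesins and the pumps.

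**Figure D3:**
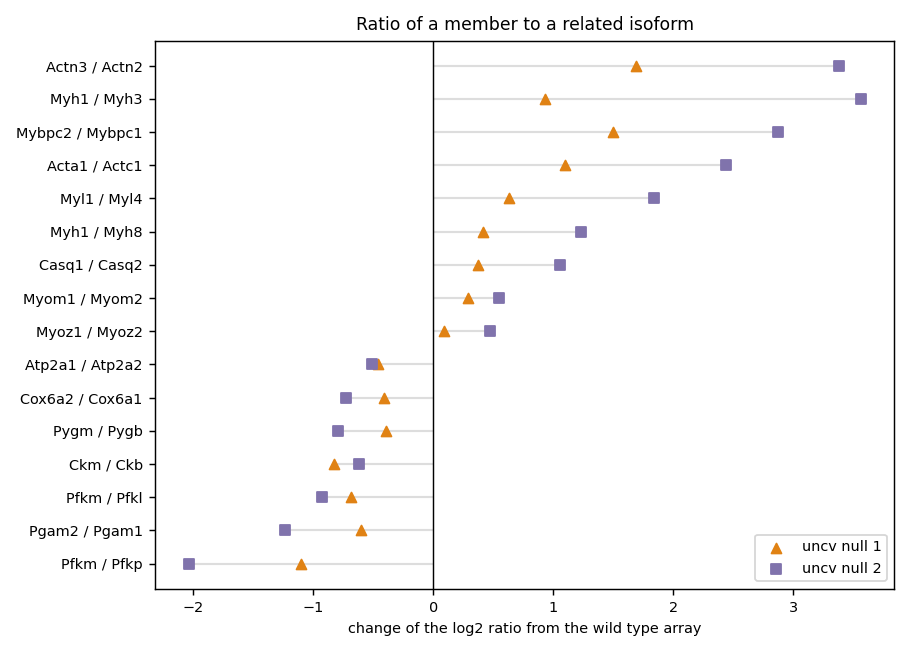
Change of the log2 ratio of a member to a related isoform from its value in the wild type array (x axis), with triangles for uncv null 1 and squares for uncv null 2. Representative probe sets are plotted, and other probe sets gave other directions for the myomesins and the pumps. The 9 pairs right of 0 are fast or adult isoforms against slow, general or embryonic ones and the pair of myomesins; the 7 left of 0 are muscle isoforms against partners also made in other tissues.

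Other genes of the same machinery, listed from textbook knowledge with earlier results of these data known, were set beside the members. Their counts are descriptions and give no independent support to those of the members. By limma 0 of these other genes passed the adjusted threshold. Of 14 tested filament genes outside the members, 10 were lower and 1 higher in both arrays (medians -0.69 and -0.75). At an unadjusted limma p under 0.05, 8 were lower and 0 higher, against 1.31% and 1.58% of all tested genes. For the counts in both arrays, here and in the lists below, the shares of all tested genes were 26.4% lower and 38.8% higher. The slow troponins Tnni1 and Tnnc1 differed by -2.00 ± 0.32 and -1.82 ± 0.31, Mybph, a myosin-binding protein, by -1.67 ± 0.39 and the slow troponin Tnnt1 by -1.09 ± 0.26. The fast troponins, named after their values were seen, were lower too, with Tnnt3 at -1.02 ± 0.26, Tnni2 at -0.90 ± 0.27 and Tnnc2 at -0.72 ± 0.27, each with an unadjusted limma p under 0.05. Among 14 Z-disc, costamere and cytoskeleton genes 10 were lower and 1 higher (medians -0.38 and -0.87). Csrp3, a muscle LIM protein, was at -1.06, Synpo2l, an actin-associated protein, at -1.04, the Z-disc protein Pdlim3 at -0.83 and the small heat shock protein Hspb7 at -0.81. Hspb7 was at 5.65, 4.97 and 4.70, with only wild type above the filter's level, so it supports no direction. Sgca, also counted as lower, was at 5.75, 5.24 and 4.71. Its mean passed the filter only through wild type too, so it supports no direction either.

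Of 9 tested triad and membrane excitation genes, 8 were lower and 1 higher in both arrays (medians -0.46 and -0.78). Popdc3, at 5.29, 5.06 and 4.67, was among the lower ones but passed the filter only through wild type, so it supports no direction. Tmem38a, a potassium channel of the sarcoplasmic reticulum, had 6.65 in wild type against 5.50 and 5.26 in the uncv null arrays. Srl, the reticulum protein sarcalumenin, was at -1.03, Bin1, which shapes transverse tubules, at -0.999 and Hrc, a calcium-binding reticulum protein, at -0.72. Among 10 other muscle energy genes 6 were lower and 2 higher (medians -0.23 and -0.58). Fabp3, a carrier of fatty acids in muscle, was at -1.55, Cox8b, a cytochrome c oxidase subunit, at -0.78, Apobec2 at -0.71 and Ak1, adenylate kinase, at -0.71.

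Markers of other cells and stages, in lists also chosen with earlier results known, differed between the arrays too. The 6 tested embryonic and perinatal sarcomere genes were all lower in both uncv null arrays, with medians of -1.29 and -2.39. Mybph, 1 of the 6, was also counted among the filament genes above. The list averaged 8.25, 7.23 and 6.18 over its 7 genes. White adipocyte markers were higher in 5 of 5 tested. Over the 6 with a probe set, the untested Lep among them, they averaged 7.16, 7.64 and 8.37, with mean differences of 1.64 for Retn, 1.05 for Cidec, 0.81 for Lipe and 0.67 for Adipoq. Of 3 tested brown adipocyte markers 1 was lower in both arrays, Cox8b, which is also a muscle gene, while Cidea averaged 0.47 and Elovl3 0.29. Fibroblast markers were lower in 5 of 5 and averaged 11.1, 11.0 and 10.7, with Col1a1 at -0.40, Lum at -0.36, Dcn at -0.35 and Col3a1 at -0.20.

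Of 6 epidermal markers 2 were higher and 1 lower in both arrays, with Ivl at 0.46, Krt14 at 0.31, Flg at -0.18 and Krt5 at 0.06. Among 4 tested smooth muscle markers 3 were higher and 0 lower, with Tagln at 0.75, Smtn at 0.21, Myh11 at -0.15 and Acta2 at 0.09. Of 4 tested tendon and fascia markers 2 were lower, Fmod at 7.17, 5.63 and 3.71 and Tnmd at 7.65, 7.11 and 6.63, while Thbs4 averaged 0.21 and Scx -0.02. Fmod was under the filter's level in uncv null 2, and its mean passed the filter only through wild type, so it supports no direction. The lower one of 3 tested Schwann cell markers was Mbp at 9.16, 7.88 and 7.29, beside Erbb3 at 0.32 and Sox10 at -0.26. None of the 8 cardiac markers passed the filter, and they averaged 3.10, 3.04 and 3.26, below each array's median over all probe sets. Myl2 and Myh7, which are also members, were among them. The part of the other cell types in the members' values was not tested.

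**Figure D4:**
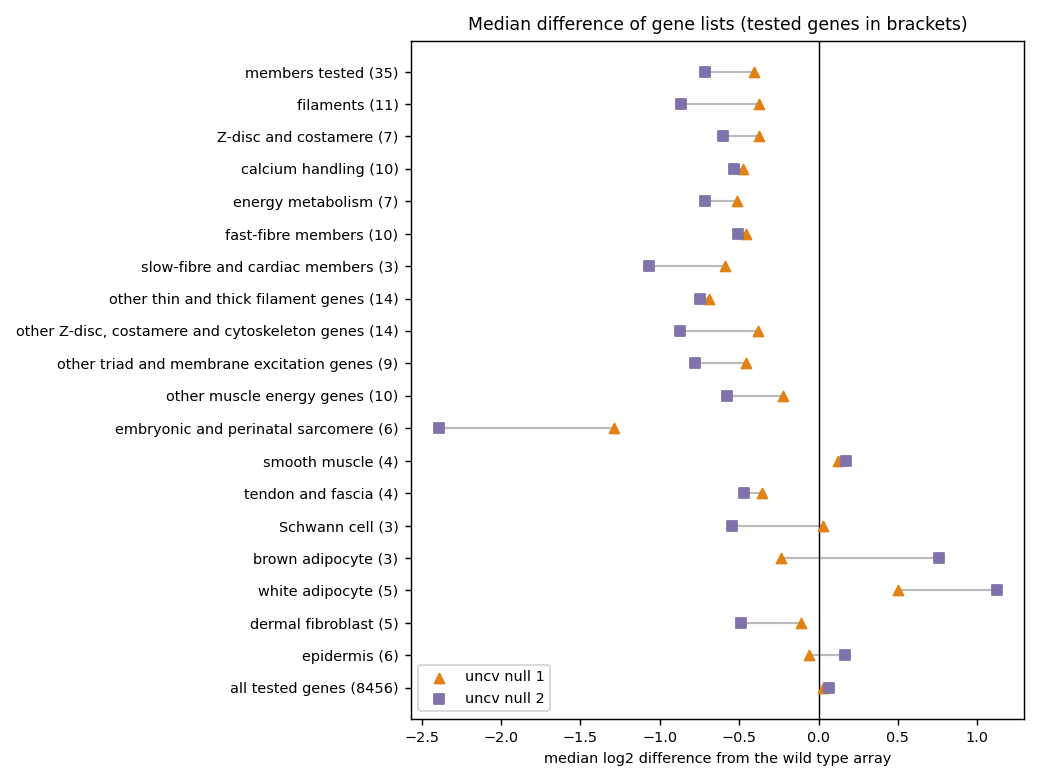
Median log2 difference from the wild type array (x axis) of each gene list with at least 3 tested genes, with triangles for uncv null 1, squares for uncv null 2 and the number of tested genes in brackets. The member lists lie between -1.07 and -0.37, embryonic and perinatal sarcomere genes lie farthest left at -1.29 and -2.39, and all tested genes lie at 0.03 and 0.07.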

How the data were processed

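Skin RNA was hybridised to 3 1-colour arrays, and the labels do not state whether mice were pooled. The deposited values are on the log2 scale and were made by the authors with RMA, per the submitters' processing notes. RMA corrects background, normalizes between arrays and summarises probes. Software and version: not given in the sources used here. A shift of all transcripts together would not be seen. Precision is limited by the number of arrays.

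Of 45101 probe sets, 64 were controls and 34945 had 1 symbol in the platform annotation. Probe sets with a mean of at least 5 (13559) were fitted with limma 3.58.1 in R 4.3.3 as uncv null minus wild type, with Benjamini-Hochberg adjustment, 1 residual and 4.75 prior degrees of freedom. This fit takes the spread of wild type to equal that of uncv null. The fit was tested on simulated data. Values of every tested member are given, with standard errors for the 3 largest differences per role and some others chosen after their values were seen, and the 4 largest, or as many as were tested, in each further list. Members, lists and isoform pairs were chosen with earlier results of these data known. Alternatives changed the filter, the probe set rule, the normalization, the variance model and the arrays used. Isoform ratios by every probe set were added after the data were seen.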

Additional observations from a re-analysis of the deposited data

How the results depend on the processing

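No paired analysis was possible with 1 wild type array against 2 uncv null arrays. Over 187 member values recomputed under other filters, probe set rules and normalizations, 187 kept their sign and 0 turned. Many of these values could not turn. A change of filter leaves a member's value as it was, and so does the probe set rule where a member has 1 probe set. Median centring moves all members by the same amount. The tally is thus no measure of robustness. The count past the limma test was 0 under all 8 alternatives that allow a test, and the lowest adjusted p of a member was 0.51, with cyclic loess. The median over tested members ranged from -0.71 to -0.40. Members past the 2-fold rule numbered 0 higher and 1 lower at a minimum mean of 7, which leaves 22 members, and 1 lower with only plain _at probe sets, which drop Casq2. Leaving out an array gave 2 to 9 lower members, with 9 when uncv null 1 was left out. The matching shares of all tested genes were not computed. Leaving out an array also gave medians of -0.60 and -0.37 for the Z-disc group and of -0.71 and -0.52 for energy metabolism. With no filter the medians were -0.25 for filaments, -0.37 for calcium handling, -0.29 for fast-fibre and -0.39 for slow-fibre and cardiac members, where dimmer genes enter. At a minimum mean of 7 they were -0.59 for calcium handling, -0.62 for fast-fibre members and -0.041 for the other muscle energy genes. With the mean of probe sets they were -0.76 for calcium handling, -0.39 for fast-fibre members and -0.49 for the other filament genes. With only plain _at probe sets calcium handling was at -0.42 and the other filament genes at -0.52, and with cyclic loess calcium handling was at -0.63. The causes of the last 6 values were not tested. Leaving out 1 array moved 16 of 35 member values by over 1.5 times or turned their sign. In alternatives chosen after the data were seen, the mean change of the Myom1 to Myom2 ratio turned from 0.417 to -0.296 with 1 further Myom2 probe set and to -0.084 with the mean of probe sets. That of Atp2a1 to Atp2a2 turned from -0.487 to 0.028 and 0.086 with 2 further Atp2a2 probe sets, and the causes were not tested.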

Other observations

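Regulators of muscle formation were mostly under the filter. Myog, a transcription factor of differentiating myoblasts, had log2 values of 6.70 in wild type against 5.82 and 4.85 in the uncv null arrays and was the 1 of 7 listed myoblast and satellite cell genes that was tested. Mymk, the membrane protein of myoblast fusion, had 5.06, 3.85 and 3.13, and Myf6, a factor of maturing fibres, had 5.36, 4.96 and 4.09. The satellite cell marker Pax7 had 3.21, 3.27 and 3.02, below each array's median over all probe sets. Of 7 genes of the neuromuscular junction 1 was tested, the acetylcholine receptor subunit Chrna1, at 5.41, 5.01 and 4.74. It differed by -0.54 ± 0.27, but its mean passed the filter only through wild type, so it supports no direction. Rapsn, which clusters that receptor, had 4.17, 3.35 and 3.14.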
